A study of Mus musculus with 20 samples.

Results

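The p53 gene Trp53 and 9 genes known as its transcriptional targets or regulators were followed through a time course of insulin-like growth factor 1 (IGF1) treatment of mouse tenocytes. The genes are Trp53, Mdm2, Btg2, Ccng1, Gadd45a, Phlda3, Perp, Trp53inp1, Zmat3 and Gdf15. They were taken by symbol from a count table of 29986 genes, and all 10 were among the 14420 genes that passed the filter on low counts and were tested. Tenocytes, the fibroblast-like cells of tendon, had been isolated from tail tendon, and the C57Bl/6 mice they came from were adult and wild type. They received 100 ng/mL recombinant IGF1 for 1, 2, 6 or 24 h, and the 0 h group received no cytokine. RNA was sequenced in 4 libraries per time, 20 in all. No untreated libraries of the later times were analysed here, so IGF1 and time in culture cannot be told apart. Nothing in the labels says if the 4 replicates of a group were separate mice or cultures, so the p-values measure the spread between these samples, which may be technical.

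p53 is a transcription factor that is held low by the ubiquitin ligase Mdm2 and accumulates when cells sense DNA damage or other stress. Its control acts mostly on the protein, through degradation and modification, so the Trp53 transcript level is no measure of p53 activity. Its targets stop the cell cycle, repair DNA, adjust metabolism or kill the cell, and Mdm2 is itself a target, which closes a feedback loop. Many of these genes also answer to other factors, among them the FoxO factors, which growth factor signalling through AKT keeps out of the nucleus.

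Promoter sequences were read for motifs of factors that act on these genes or below growth factor signalling. RefSeq windows on GRCm38.p6 from 250 bases before to 50 bases after the start of transcription were found for 7 of the 10 members. These windows were searched on both strands for 6 motifs. The motifs were a p53 response element, FoxO TGTTTAC, CREB TGACGTCA, the ATF4 and C/EBP composite TGATGNAAN, EGR GCGGGGGCG and the SRF CArG box, and the last of these is named only. Stretches around the matches in Ccng1, Btg2 and Mdm2 are printed 5′ to 3′ on the strand of the gene, with the match in capitals, because these 3 genes held the only matches and followed different courses.
Ccng1, p53 response element, chr11:40755422-40755521, minus strand: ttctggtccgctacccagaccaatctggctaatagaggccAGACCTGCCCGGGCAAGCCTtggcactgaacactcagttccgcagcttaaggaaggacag
Btg2, CREB motif, chr1:134079274-134079361, minus strand: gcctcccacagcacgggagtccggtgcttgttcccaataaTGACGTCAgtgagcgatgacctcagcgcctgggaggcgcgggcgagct
Mdm2, FoxO motif read on the other strand, chr10:117710865-117710951, minus strand: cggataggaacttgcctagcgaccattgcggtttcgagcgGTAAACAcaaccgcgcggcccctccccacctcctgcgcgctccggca
The match lay 195 bases upstream of the start in Ccng1, 166 bases in Btg2 and 153 bases in Mdm2. A p53 response element was found in 0.067% of 32851 windows of the same length, the CREB motif in 1.79% and the FoxO motif in 3.65%. The ATF4 and C/EBP composite was found in 3.95% of windows, the EGR motif in 2.91% and the CArG box in 1.63%, none of them in a member's window. The windows of Trp53, Phlda3, Gadd45a and Gdf15, which has 2, held none of the 6 motifs. A match is a string of letters in this window and not evidence of binding. Perp, Trp53inp1 and Zmat3 had no window and were not searched. Sites outside the windows were not searched either, so the lack of a match is not evidence that a member lacks a site.

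Total counts ranged from 13734425 to 22687173 per library. Tenocyte markers such as Scx, Tnmd and Col1a1 were present in every library, with a summed level of 50660 to 81370 CPM (read counts scaled by library size), and none of the 10 was at 0. Macrophage markers were detected in all libraries and were raised at 2 h, where 11 of the 12 tested were called higher, against 0 at 1, 6 and 24 h. Their summed level over 13 markers was 271 to 342 CPM at 0 h, 247 to 539 CPM at 1 h, 287 to 457 CPM at 6 h and 201 to 358 CPM at 24 h. In replicates 1 to 4 of the 2 h group it was 589, 1074, 408 and 494 CPM. Replicate 2 of that group was also the highest of the 4 in the remaining lists for cells other than tenocytes. Its summed level was 83.3 CPM for Schwann cell markers, where the other 3 lay between 6.10 and 13.7. It was 51.3 CPM for endothelial markers (20.8 to 24.2) and 87.8 CPM for those of pericytes and smooth muscle (29.4 to 48.4). For tenocyte markers this replicate was the lowest of the 4, at 50660 CPM (60840 to 71530). Of the 10 tenocyte markers, 3 were called higher and 4 lower at 2 h. At 2 h, 2 of 6 tested Schwann cell markers (Sox10 and Ngfr) and 1 of 6 pericyte and smooth muscle markers (Mcam) were called higher, and 1 of 2 endothelial markers (Tek) was called lower. Of all genes tested, 20.2% were called higher and 17.5% lower at 2 h, so these small counts are a description only. The 2 h libraries also differed more among themselves than those of any other time, with replicates 2 and 4 farthest apart (chi-square of 57.4 per degree of freedom, against 2.99 to 10.7 within the other times). Replicates 1 and 2 had the highest macrophage marker levels of the 2 h group. Changes of the members at 2 h against 0 h are also given without replicates 1 and 2. For other named genes this is done only where it changed the call at 2 h. The 2 libraries kept, replicates 3 and 4, also differed from each other (chi-square of 45.5 per degree of freedom). By this measure replicate 4 was the library most unlike the others of 2 h, at 42.5, 57.4 and 45.5 against replicates 1, 2 and 3. Those 3 differed among themselves by 9.36 to 32.8, so the fit without replicates 1 and 2 keeps the most deviant library. Where leaving out replicate 4 changed the call of a member at 2 h against 0 h or of a step into or out of 2 h, that value is given too. In these bulk libraries, fewer cells of a type and less RNA per cell cannot be told apart.

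The 10 genes did not move as a block (plot of levels by library). Trp53inp1 was 4.17-fold lower by 2 h and ended above its starting level, and Btg2 fell at 2 h and was higher at 24 h. Mdm2 peaked at 1 h and Phlda3 at 2 h, Gadd45a was called lower only at 1 h, and Perp rose late, 2.66-fold at 24 h. Ccng1 and Gdf15 rose from 6 h, Zmat3 was slightly lower at 2 h, and Trp53 itself was called at no time against 0 h. Calls are at an adjusted p under 0.05, by edgeR's quasi-likelihood test with Benjamini-Hochberg adjustment over all 14420 genes, and changes are log2 fold changes against 0 h ± SE unless another time is named.

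**Figure D1:**
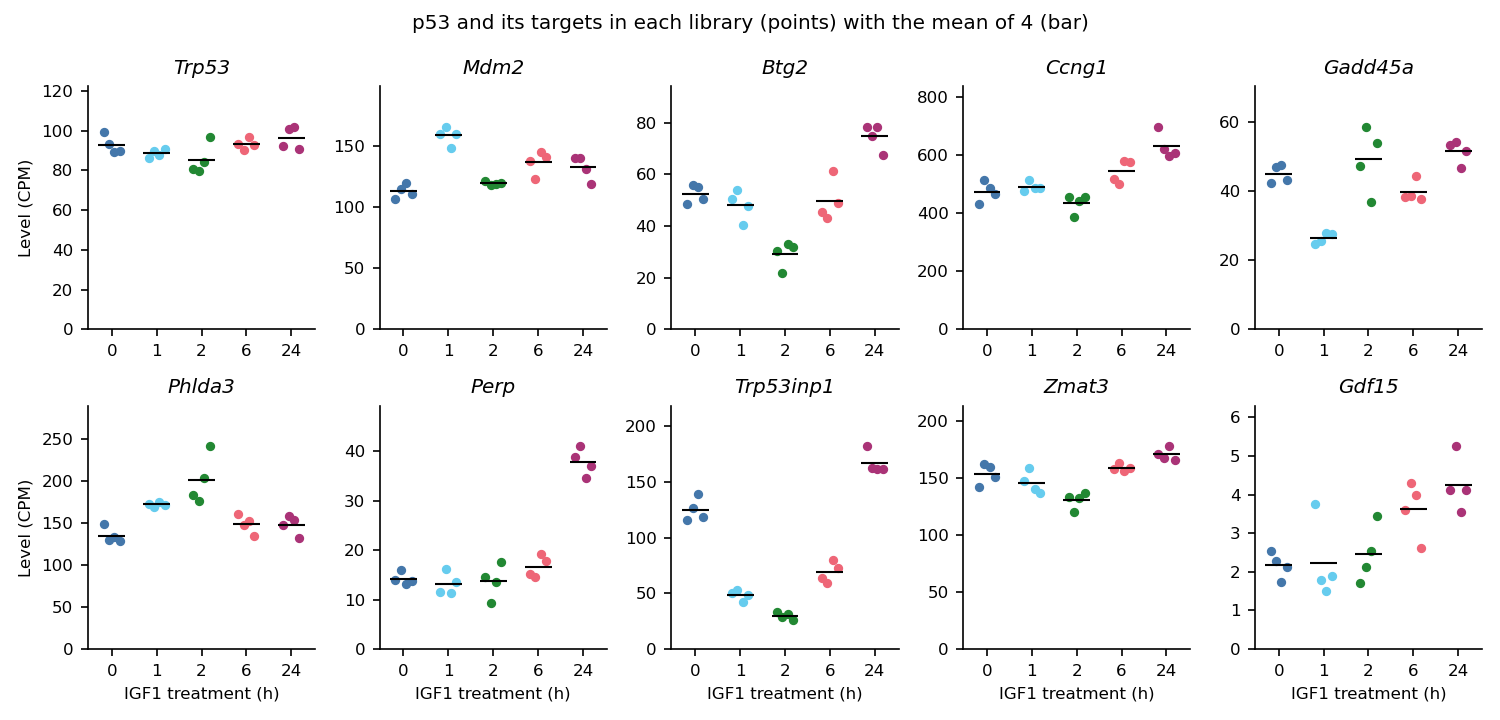
Level in CPM (vertical axis, from 0) of each of the 10 genes in each of the 20 libraries (points) by hours of IGF1 treatment, with the mean of 4 libraries as a bar. Trp53inp1 drops at 1 and 2 h and Perp is high only at 24 h, while Trp53 stays between 79.6 and 102 CPM.

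Trp53 encodes p53 and lies at chr11:69580359-69591873 on the plus strand (positions here and below are GENCODE M21 genes on mm10). Replicates 1 to 4 gave 99.2, 93.2, 89.2 and 89.6 CPM at 0 h, 86.2, 89.8, 87.8 and 90.6 at 1 h, and 80.9, 79.6, 84.2 and 96.7 at 2 h. They gave 93.4, 90.2, 96.8 and 92.8 CPM at 6 h and 92.4, 101, 102 and 90.6 at 24 h. Each treated time overlapped 0 h, and replicate 4 stood above the other libraries at 2 h. The change was -0.07 ± 0.06 at 1 h, -0.12 ± 0.06 at 2 h (95% interval -0.25 to 0.0028, adjusted p = 0.136), 0.01 ± 0.06 at 6 h and 0.06 ± 0.06 at 24 h. The test for any change over the 5 times gave an adjusted p of 0.107. Without 2 h replicate 4 that became 0.00226, and the change at 2 h became -0.19 (adjusted p = 0.00674), so this library decides whether Trp53 is called lower at 2 h. Without 2 h replicates 1 and 2 the change at 2 h was -0.04. The step from 2 to 6 h (0.13 ± 0.06, adjusted p = 0.137) was likewise called without 2 h replicate 4 (0.20, adjusted p = 0.00609). The processed pseudogene Trp53-ps held 1 count over all 20 libraries.

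Mdm2, the ubiquitin ligase that marks p53 for degradation, lies at chr10:117688875-117710758 on the minus strand. It read 107, 115, 120 and 111 CPM at 0 h and 160, 166, 149 and 160 at 1 h, 2 sets that did not overlap. At 2 h it was back at 122, 119, 119 and 120 CPM, before 138, 123, 146 and 142 at 6 h and 140, 141, 132 and 119 at 24 h. The 6 h libraries all lay above those of 0 h, and those of 24 h overlapped them. Mdm2 was 1.40-fold higher at 1 h (0.49 ± 0.06, adjusted p = 2.18e-06), fell from 1 to 2 h (-0.41 ± 0.06, adjusted p = 4.8e-05) and was not called at 2 h (0.08 ± 0.06, and 0.08 without 2 h replicates 1 and 2). It was again higher at 6 h (0.28 ± 0.06, adjusted p = 0.00083) and 24 h (0.23 ± 0.06, adjusted p = 0.00672). The level at 1 h also exceeded that at 6 h, the next highest (adjusted p = 0.00938), and this difference was lost without 6 h replicate 2 (adjusted p = 0.0773). The rise from 2 to 6 h (0.19 ± 0.06, adjusted p = 0.0232) was not called once the third or the fourth 6 h library (adjusted p = 0.0809 and 0.0613) or both 2 h replicates 1 and 2 (0.0512) were left out.

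Among the genes tied to growth arrest, Btg2 dipped at 2 h. Btg2, an antiproliferative protein that recruits the deadenylase machinery to messenger RNA, lies at chr1:134075170-134079120 on the minus strand. It read 48.6, 56.0, 55.0 and 50.5 CPM at 0 h, 50.3, 54.1, 40.5 and 47.8 at 1 h, and 30.2, 21.8, 33.0 and 31.7 at 2 h. At 6 h the libraries gave 45.5, 42.9, 61.2 and 48.9 CPM and at 24 h 78.5, 75.0, 78.3 and 67.5. All 2 h libraries were below, and all 24 h libraries above, every library of 0 h. The change was -0.85 ± 0.12 at 2 h (adjusted p = 4.67e-06) and 0.51 ± 0.11 at 24 h (adjusted p = 0.00154), with steps of -0.72 ± 0.12 from 1 to 2 h, 0.77 ± 0.12 from 2 to 6 h and 0.59 ± 0.11 from 6 to 24 h, all called. Without 2 h replicates 1 and 2, the change at 2 h was -0.70 and still called. The levels at 1, 6 and 0 h were not told apart by the test.

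Ccng1 encodes cyclin G1, a partner of protein phosphatase 2A, and lies at chr11:40748552-40755311 on the minus strand. Of the 7 members with a promoter window, it is the one whose window held a p53 response element. Sites outside these windows were not searched. Its 0 h libraries read 433, 513, 486 and 467 CPM, its 1 h libraries 478, 514, 485 and 489 and its 2 h libraries 456, 386, 443 and 457. At 6 h they read 520, 502, 581 and 578 CPM and at 24 h 699, 621, 596 and 608. The 24 h libraries lay above all others, and those of 6 h overlapped 0 h. At 2 h the change was -0.12 ± 0.07 (adjusted p = 0.16), and -0.08 without 2 h replicates 1 and 2. The step from 1 to 2 h (-0.17 ± 0.07, adjusted p = 0.0817) was called without 2 h replicate 4 (-0.19, adjusted p = 0.0384). Ccng1 was 1.33-fold higher at 24 h (0.41 ± 0.07, adjusted p = 3.71e-05) and 1.15-fold at 6 h (0.20 ± 0.07, adjusted p = 0.0203). The call at 6 h did not survive leaving out the first 0 h library (adjusted p = 0.0789), 6 h replicate 3 (0.0736) or 6 h replicate 4 (0.0664). The step from 6 to 24 h (0.21 ± 0.07, adjusted p = 0.0163) was not called when 24 h replicate 1 (adjusted p = 0.083), 6 h replicate 2 (0.0672) or 6 h replicate 1 (0.056) was left out.

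Gadd45a, a stress sensor that binds PCNA and cell cycle kinases, lies at chr6:67035096-67037457 on the minus strand. It read 42.4, 46.9, 47.6 and 43.1 CPM at 0 h, 24.8, 25.7, 28.0 and 27.6 at 1 h, and 47.3, 58.7, 36.9 and 53.8 at 2 h. The 6 h libraries gave 38.3, 38.5, 44.3 and 37.6 CPM and those of 24 h 53.4, 54.0, 46.8 and 51.5. Each 1 h library was below every other library of the course. The fall at 1 h was 1.70-fold (-0.76 ± 0.10, adjusted p = 2.72e-06), followed by a rise from 1 to 2 h (0.89 ± 0.10, adjusted p = 3.87e-07). At 2 h the change was 0.13 ± 0.10 and not called, except without 2 h replicate 3 (0.24, adjusted p = 0.0201), and it was 0.01 without 2 h replicates 1 and 2. A fall from 2 to 6 h (-0.31 ± 0.10, adjusted p = 0.0176) rested on single libraries. It was not called without 2 h replicate 2 (-0.21, adjusted p = 0.0976) or 4 (-0.26, adjusted p = 0.0531), or without replicate 1, 2 or 4 of the 6 h group (adjusted p = 0.0592, 0.0516 and 0.0648), and without both 2 h replicates 1 and 2 it was -0.19. The step from 6 to 24 h was 0.38 ± 0.10 (adjusted p = 0.00336). Against 0 h, the change was -0.18 ± 0.10 at 6 h (adjusted p = 0.142) and 0.19 ± 0.10 at 24 h (adjusted p = 0.149). Both were called with only the 8 libraries compared (adjusted p = 0.0248 and 0.0161), and 26 of 27 alternatives left each uncalled. Gadd45a shares 337 exonic bases (19.1%) with E230016M11Rik on the opposite strand, whose own row held 15 to 38 counts per library against 417 to 1166 for Gadd45a. As the use of strand in counting is unknown, reads of the shared bases cannot be told apart, and no other member shares exonic bases with another gene.

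Phlda3 encodes a small lipid-binding protein that competes with AKT for membranes and so restrains AKT, a kinase of the IGF1 pathway. It lies at chr1:135766119-135769136 on the plus strand. Its levels were 149, 130, 133 and 128 CPM at 0 h, 173, 169, 174 and 172 at 1 h, and 184, 177, 204 and 241 at 2 h. They were 161, 147, 152 and 135 CPM at 6 h and 148, 159, 153 and 132 at 24 h. All libraries of 1 and 2 h exceeded all those of 0, 6 and 24 h. Phlda3 was 1.27-fold higher at 1 h (0.35 ± 0.08, adjusted p = 0.00321) and 1.49-fold at 2 h (0.57 ± 0.08, adjusted p = 1.85e-06), then fell from 2 to 6 h (-0.44 ± 0.08, adjusted p = 0.000138). Without 2 h replicates 1 and 2 the change at 2 h was 0.72, and without 2 h replicate 4, the highest, it was 0.47, called in both. The step from 1 to 2 h (0.22 ± 0.08) sat at the threshold (adjusted p = 0.0508). It was called once 2 h replicate 1 (0.0257), replicate 2 (0.0142) or both (0.38, adjusted p = 0.00161) were left out, while without 2 h replicate 4 it was 0.13 (adjusted p = 0.144). RLE scaling (adjusted p = 0.0394), DESeq2 (0.0306) and 2 other filters (0.0213 and 0.0388) also called this step. Of 27 alternatives, 14 left it uncalled. The difference between 1 h and the next lower time, 6 h (0.21 lower at 6 h, adjusted p = 0.0403), lost its call when 17 of the 20 libraries were left out in turn (adjusted p from 0.0518 to 0.192), and kept it only without 2 h replicate 2, 2 h replicate 4 or 6 h replicate 1.

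Of the members tied to cell death and tumour suppression, Perp changed late. Perp encodes a membrane protein of desmosomes that takes part in apoptosis, and lies at chr10:18845020-18857073 on the plus strand. It read 14.0, 16.0, 13.2 and 13.8 CPM at 0 h, 11.5, 16.3, 11.4 and 13.5 at 1 h, and 14.5, 9.31, 13.5 and 17.6 at 2 h. It read 15.2, 14.7, 19.1 and 17.8 CPM at 6 h and 38.8, 41.0, 34.7 and 37.0 at 24 h. The lowest 24 h library was well above the highest of any earlier time. The change was 1.41 ± 0.14 at 24 h (adjusted p = 1.18e-08) and 0.23 ± 0.14 at 6 h (adjusted p = 0.2). At 2 h it was -0.06 ± 0.14, and 0.13 (adjusted p = 0.535) without 2 h replicates 1 and 2, and the step from 6 to 24 h was 1.18 ± 0.14 (adjusted p = 1.53e-07). No neighbours in the order of the 4 earlier means differed by the test. The pair of 6 h against 1 h, which are not neighbours in this order, gave 0.34 ± 0.14 (adjusted p = 0.0638). This pair was called with DESeq2 (adjusted p = 0.0441), no filter on low counts (0.0107) and only the 8 libraries compared (0.017). Of 27 alternatives, 19 left it uncalled. The step from 2 to 6 h (0.29 ± 0.14, adjusted p = 0.138) was called without 2 h replicate 4 (0.43, adjusted p = 0.013).

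Trp53inp1 encodes a stress-induced protein of nuclear bodies and autophagosomes that favours cell death, and lies at chr4:11156431-11174379 on the plus strand. Replicates gave 116, 127, 139 and 119 CPM at 0 h, 50.7, 53.4, 42.2 and 48.2 at 1 h, and 33.7, 28.5, 31.4 and 26.3 at 2 h. The level then climbed to 64.0, 59.4, 79.7 and 73.0 CPM at 6 h and 182, 162, 162 and 162 at 24 h. No library of any time overlapped those of another time. Against 0 h, Trp53inp1 was lower by 1.37 ± 0.09 on the log2 scale at 1 h (2.58-fold, adjusted p = 1.07e-11), by 2.06 ± 0.09 at 2 h (4.17-fold, adjusted p = 2.49e-15) and by 0.86 ± 0.09 at 6 h (1.81-fold, adjusted p = 1.26e-08). At 24 h it was higher by 0.42 ± 0.09 (1.33-fold, adjusted p = 0.000626). All 10 pairs of times differed, the only member of which this held. Without 2 h replicates 1 and 2 the change at 2 h was -2.12.

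Zmat3, an RNA-binding zinc finger protein that acts on splicing and RNA stability, lies at chr3:32334792-32366014 on the minus strand. Its libraries gave 142, 162, 160 and 152 CPM at 0 h, 148, 159, 140 and 137 at 1 h, and 134, 120, 133 and 137 at 2 h. They gave 158, 163, 156 and 159 CPM at 6 h and 172, 168, 178 and 166 at 24 h. The 2 h libraries lay below, and those of 24 h above, all libraries of 0 h. The change was -0.23 ± 0.06 at 2 h (1.17-fold lower, adjusted p = 0.00264), and -0.19 (adjusted p = 0.0261) without 2 h replicates 1 and 2. The step from 1 to 2 h (-0.16 ± 0.06, adjusted p = 0.0701) was called without 2 h replicate 4 (-0.17, adjusted p = 0.0287) or 1 h replicate 4 (-0.19, adjusted p = 0.0443). The rise from 2 to 6 h was 0.28 ± 0.06 (adjusted p = 0.000679). At 24 h the change of 0.15 ± 0.06 missed the threshold (adjusted p = 0.0581) and was called without the second library of 0 h (0.0417), that of 1 h (0.0452) or that of 2 h (0.0412), and without the third (0.0475) or the fourth (0.0165) of 2 h. The 24 h change was also called with DESeq2 (adjusted p = 0.0294), another filter on low counts (0.0414) and only the 8 libraries compared (0.00791). The same held without both 2 h replicates 1 and 2 (0.0323). Of 27 alternatives, 18 left it uncalled. No neighbours in the order of its 5 mean levels differed by the test.

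Gdf15, a secreted cytokine of the TGF-beta superfamily that cells release under stress, lies at chr8:70629393-70632456 on the minus strand and was the scarcest member, with 30 to 87 counts per library. It read 2.55, 2.28, 1.75 and 2.13 CPM at 0 h, 3.74, 1.78, 1.51 and 1.90 at 1 h, and 1.72, 2.11, 2.53 and 3.44 at 2 h. It read 3.60, 4.30, 3.98 and 2.62 CPM at 6 h and 4.12, 5.25, 3.54 and 4.13 at 24 h. All libraries of 6 and 24 h were above those of 0 h, while 1 library each at 1 and 2 h reached into the later range. The change was 0.73 ± 0.25 at 6 h (adjusted p = 0.0227) and 0.96 ± 0.25 at 24 h (1.95-fold, adjusted p = 0.0053). The call at 6 h was gone once 0 h replicate 3 (adjusted p = 0.0689), 6 h replicate 2 (0.0736) or 6 h replicate 3 (0.0573) was left out. At 2 h the change was 0.16 ± 0.26, and 0.45 (adjusted p = 0.264) without 2 h replicates 1 and 2. No step between successive times was called with all libraries, but that from 2 to 6 h (0.57 ± 0.25, adjusted p = 0.0952) was called without 2 h replicate 4 (0.78, adjusted p = 0.022), and no neighbours in the order of its mean levels differed by the test.

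**Figure D2:**
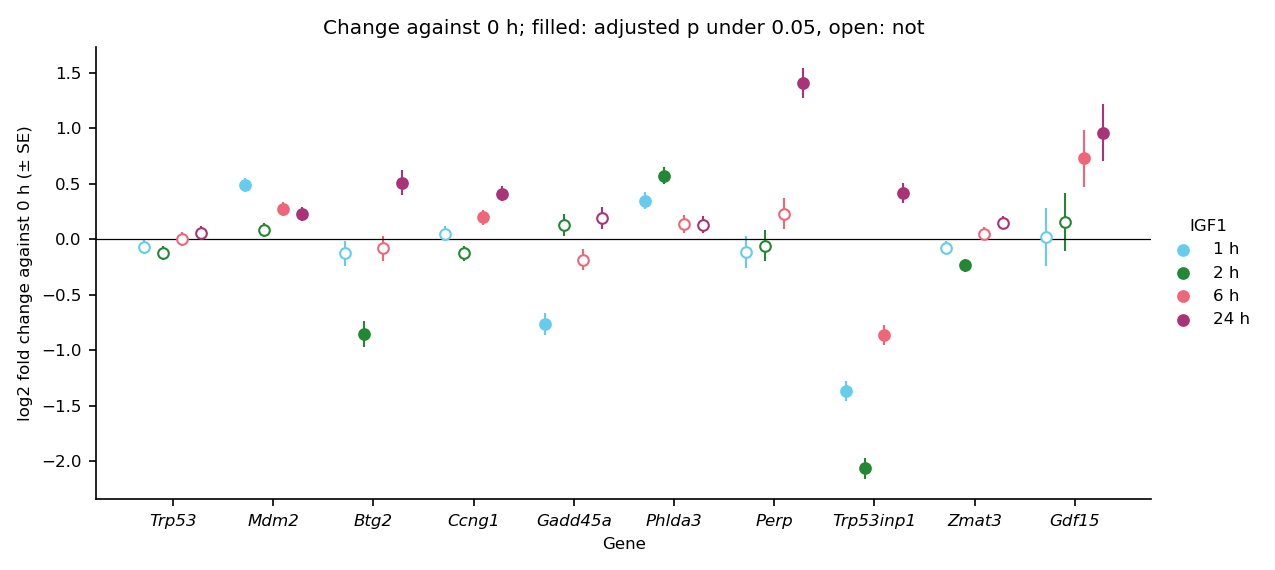
The log2 fold change against 0 h (vertical axis, ± SE) of each of the 10 genes at 1, 2, 6 and 24 h, with filled points where the adjusted p was under 0.05. Trp53inp1 reaches -2.06 at 2 h and Perp 1.41 at 24 h, and no point of Trp53 is filled.

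Counted together, 2 members were called higher and 2 lower at 1 h, 1 higher and 3 lower at 2 h, 3 higher and 1 lower at 6 h, and 6 higher and 0 lower at 24 h. Of all 14420 genes tested, 10.6% were called at 1 h (6.75% higher and 3.88% lower) and 37.7% at 2 h (20.2% higher and 17.5% lower). The shares were 40.2% at 6 h (20.6% higher and 19.6% lower) and 26% at 24 h (12.7% higher and 13.2% lower). The members called were thus 4 of 10 at 1, 2 and 6 h, a share near that of all genes at 2 and 6 h, and 6 of 10 at 24 h. Their median change was -0.07, -0.09, 0.09 and 0.32 at 1, 2, 6 and 24 h, beside medians within 0.01 of 0 over all genes. From 1 to 2 h, 1 member rose and 3 fell, while of all genes 16.3% were called (7.5% higher and 8.84% lower). From 2 to 6 h, 5 members rose and 2 fell, beside 27.4% of all genes (13.6% higher and 13.7% lower). From 6 to 24 h, 5 members rose and 0 fell, beside 35.8% of all genes (17.6% higher and 18.2% lower). The 5 that changed from 6 to 24 h were Perp, Ccng1, Trp53inp1, Btg2 and Gadd45a, all of them upward. Over the whole course 9 of the 10 members changed at some time, as did 63.7% of all genes, and the exception was Trp53. With 10 genes chosen by name and with earlier results known, these counts describe the members and nothing particular to them. Without 6 h replicate 3, 2 members were called at 6 h in place of 4. Without 2 h replicate 4, 5 were called at 2 h, 7 at 24 h, and 6, 9 and 5 over the 3 steps. The share of all genes called without these libraries is not given here, so these counts cannot be set against a background.

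The pairs of times that do not touch 0 h and are no step gave further differences. At 24 h against 2 h, 7 members were higher and 1 lower (20.8% and 22.9% of all genes, 43.6% together), among them Btg2 (1.36 ± 0.12), Trp53inp1 (2.48 ± 0.09), Ccng1 (0.53 ± 0.07) and Zmat3 (0.38 ± 0.06), while Phlda3 fell by 0.44 ± 0.08. Trp53 was called in this pair (0.18 ± 0.06 higher at 24 h, adjusted p = 0.0251), the only one of its 10 pairs. It was not called without replicate 1 (adjusted p = 0.0742) or 2 (0.0864) of the 2 h group, or without replicate 2 (0.0747) or 3 (0.0818) of the 24 h group, and the change was 0.10 (adjusted p = 0.31) without both 2 h replicates 1 and 2. Without those 2 libraries Gdf15 was 0.52 higher (adjusted p = 0.166), against 0.80 ± 0.25 (adjusted p = 0.0113) with them. At 24 h against 1 h, 7 members were higher and 2 lower (15.9% and 18.6% of all genes, 34.4% together). The lower ones were Mdm2 (-0.26 ± 0.06, adjusted p = 0.00204) and Phlda3 (-0.22 ± 0.08, adjusted p = 0.0349). The call of Phlda3 was lost on leaving out 15 of the 20 libraries in turn and kept only without 0 h replicate 1, 24 h replicate 2, or replicate 1, 2 or 4 of the 2 h group. At 6 h against 1 h, 3 members were higher and 2 lower (16.1% and 17.3% of all genes, 33.4% together). Gdf15 was 0.71 ± 0.26 higher there (adjusted p = 0.0342), and 1.08 higher (adjusted p = 0.00169) without 1 h replicate 1, its highest early library. Leaving out any 1 of the other 3 libraries of 1 h, or replicate 1, 2 or 3 of 6 h, lost this call (adjusted p from 0.0549 to 0.121).

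Levels of different genes can be compared only per length, as CPM divided by the exonic length in kilobases (RPKM). On this scale at 0 h, Ccng1 was the most abundant at 135 ± 9.58 RPKM (SD, n = 4) and Phlda3 followed at 86.7 ± 6.09. A middle group held Gadd45a (25.5 ± 1.49), Trp53 (22.9 ± 1.15), Mdm2 (22.3 ± 1.10), Trp53inp1 (19.3 ± 1.62), Btg2 (19.2 ± 1.30) and Zmat3 (13.5 ± 0.778). Perp stood at 7.30 ± 0.625 RPKM and Gdf15 at 1.18 ± 0.181. The order changed where a member moved. At 2 h Trp53inp1 stood at 4.63 ± 0.504 RPKM, below Perp at 7.04 ± 1.76, and at 24 h it was back at 25.8 ± 1.54 RPKM while Perp had reached 19.4 ± 1.37. Phlda3 at 2 h (129 ± 18.6 RPKM) was level with Ccng1 (124 ± 9.63) within their spread.

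**Figure D3:**
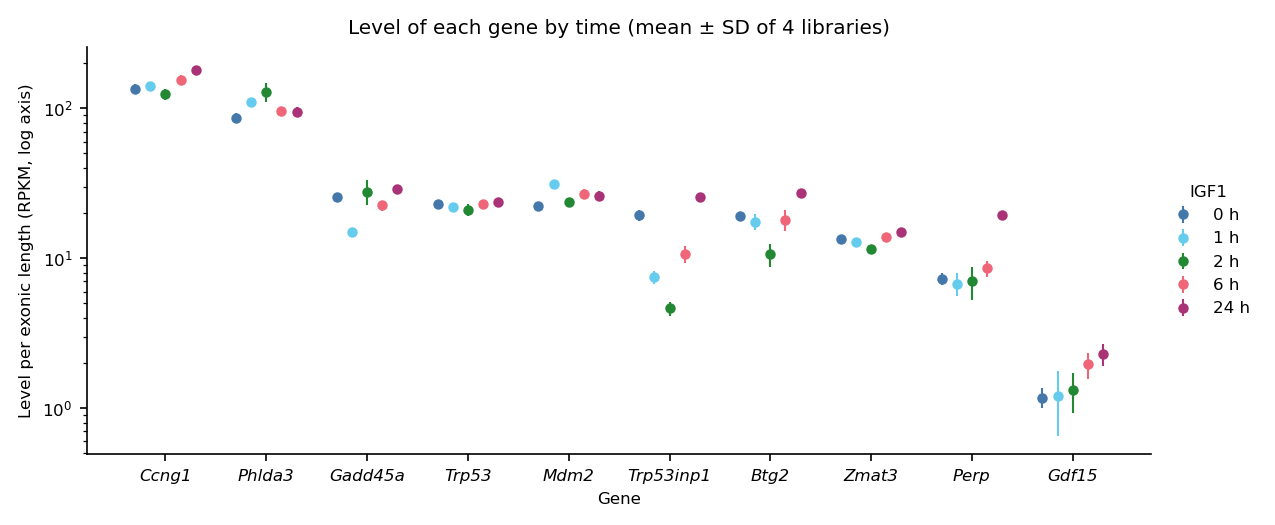
Level per exonic length (RPKM, log axis) of the 10 genes at each time, as the mean of 4 libraries ± SD, in the order of their 0 h levels. Ccng1 and Phlda3 lie above 80 RPKM at all times and Gdf15 below 3.

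The wider p53 pathway was read from lists of 24 regulators and 60 further targets, of which 23 and 58 were tested. Regulators, the kinases, cofactors and relatives that act on p53, had 0 higher and 1 lower at 1 h, 4 and 5 at 2 h, 5 and 7 at 6 h, and 3 and 4 at 24 h. The regulators called were 4.35% of those tested at 1 h (10.6% of all genes), 39.1% at 2 h (37.7%), 52.2% at 6 h (40.2%) and 30.4% at 24 h (26%). Further targets had 7 higher and 5 lower at 1 h, 14 and 16 at 2 h, 12 and 19 at 6 h, and 25 higher and 4 lower at 24 h. Beside the shares of all genes, 12.1% of these targets were higher (6.75%) and 8.62% lower (3.88%) at 1 h, and 24.1% were higher (20.2%) and 27.6% lower (17.5%) at 2 h. At 6 h, 20.7% were higher (20.6%) and 32.8% lower (19.6%). At 24 h, 43.1% were higher (12.7%) and 6.9% lower (13.2%), with a median change of 0.18. At 1, 2 and 6 h their medians were 0.01, -0.03 and 0.04. Without 2 h replicates 1 and 2, 12 targets were higher and 13 lower at 2 h. Without 2 h replicate 4, 11 regulators were called at 24 h in place of 7, and at 1 h 2 in place of 1, as also without 0 h replicate 4. For these fits too, the share of all genes called is not given. By role at 24 h, 8 of 14 arrest and growth targets were higher and 1 lower, 6 of 18 cell death targets were higher and 1 lower, and 11 of 26 DNA repair and metabolism targets were higher and 2 lower. The lists were written with earlier results of these data known, so the counts are a description.

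**Figure D4:**
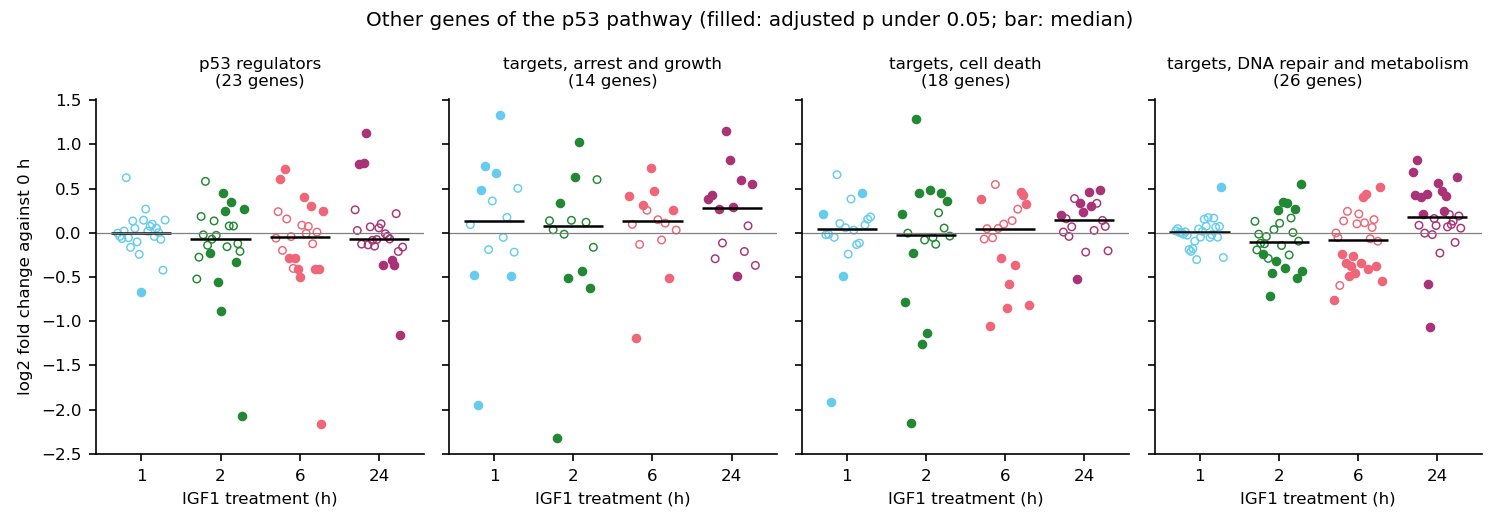
The log2 fold change against 0 h (vertical axis) of each tested regulator or further target of p53 (points) at 1, 2, 6 and 24 h, in 4 lists, with the median as a bar and filled points where the adjusted p was under 0.05. The lowest points at 1 and 2 h are Ccng2 and Bbc3, and most filled target points at 24 h lie above 0.

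Early on, the targets with the largest changes split in both directions. Plk3 and Plk2, polo-like kinases induced by stress and by growth factors, were 1.33 ± 0.12 and 0.68 ± 0.08 higher at 1 h, and Plk3 was 0.48 ± 0.12 lower by 24 h. Plk2 was also called higher at 2, 6 and 24 h, and Plk3 at 2 h. The ephrin receptor gene Epha2 was 0.75 ± 0.08 higher at 1 h and 0.31 ± 0.08 higher at 6 h. Tigar, a phosphatase that restrains glycolysis, was about 0.5 higher at 1, 2 and 6 h (0.52 ± 0.10, 0.55 ± 0.10 and 0.52 ± 0.10). Cdkn1a, the p21 inhibitor of cyclin-dependent kinases, is outside the naming rule and was singled out after its values were seen. It stood at 240.5 ± 10.7 CPM at 0 h and 336 ± 8.45 CPM at 1 h (SD, n = 4), a change of 0.48 ± 0.06, and was also called higher at 2 h (0.33 ± 0.06) and 24 h (0.27 ± 0.06). At 6 h it stood at -0.13 ± 0.06 (adjusted p = 0.062). It was called lower there with RLE scaling (adjusted p = 0.0494), DESeq2 (0.0251), another filter on low counts (0.0482) and only the 8 libraries compared (0.0256). The same held without 2 h replicate 4 (0.0252), without 6 h replicate 3 (0.0341) and without both 2 h replicates 1 and 2 (0.0472).

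The falling side was led by Ccng2, the cyclin G2 relative of Ccng1, and Bbc3, which encodes the BH3-only death protein PUMA. Ccng2 was lower by 1.95 ± 0.15 at 1 h, 2.32 ± 0.15 at 2 h and 1.19 ± 0.14 at 6 h on the log2 scale. Bbc3 was lower by 1.92 ± 0.12, 2.15 ± 0.12 and 1.05 ± 0.12 at the same times, and at 24 h it stood at -0.04 ± 0.11. Fas, a death receptor gene, was lower at 2 h (-1.14 ± 0.12) and 6 h (-0.85 ± 0.12). Eda2r, of the same receptor family, was lower at 1 h (-0.49 ± 0.10), 2 h (-1.26 ± 0.10) and 6 h (-0.28 ± 0.10, adjusted p = 0.0207) and higher at 24 h (0.34 ± 0.10, adjusted p = 0.00989). Its 6 h call was lost on leaving out replicate 2, 3 or 4 of 0 h (adjusted p = 0.0529, 0.0684 and 0.0577) or replicate 2 or 4 of 6 h (0.0647 and 0.0522). Ppm1d, the phosphatase that switches p53 off, was lower by 0.67 ± 0.12 at 1 h, 0.89 ± 0.12 at 2 h and 0.50 ± 0.11 at 6 h. Sesn1, which restrains growth signalling, was lower by 0.49 ± 0.13 at 1 h (adjusted p = 0.0132, but 0.0672 without 1 h replicate 3), 0.62 ± 0.13 at 2 h and 0.52 ± 0.13 at 6 h. Pmaip1, which encodes the death protein NOXA, was 0.48 ± 0.15 higher at 2 h (adjusted p = 0.0138), 0.58 ± 0.16 lower at 6 h (adjusted p = 0.00464) and 0.46 ± 0.15 higher at 24 h (adjusted p = 0.027). The 24 h call was lost without replicate 1 (adjusted p = 0.101) or 3 (0.0519) of 0 h or replicate 1 (0.119) or 2 (0.0533) of 24 h. The 2 h call was lost without 2 h replicate 2 or 0 h replicate 1 (adjusted p = 0.0641 in each), and the change was 0.35 (adjusted p = 0.134) without 2 h replicates 1 and 2.

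At 6 h Trp53i11 was 0.82 ± 0.13 lower, and Pidd1, a scaffold of the caspase-2 complex, was 0.73 ± 0.20 higher. By the same limit of 5 CPM as for the falls, the largest rises at 24 h were Gtse1 (1.15 ± 0.11), which is expressed in G2 phase and binds p53, and the checkpoint kinase gene Chek2 (1.12 ± 0.13). Dcxr rose by 0.83 ± 0.10 and Pidd1 by 0.82 ± 0.20. Banp, a nuclear matrix protein that binds p53, was 0.61 ± 0.11 higher at 6 h and 0.78 ± 0.11 higher at 24 h. Among listed genes with a mean of at least 5 CPM in the higher group, the largest falls at 24 h were Gadd45g (-1.07 ± 0.13), Gadd45b (-0.58 ± 0.10) and the autophagy gene Dram1 (-0.53 ± 0.11).

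The genes most like each member in course had the smallest root mean square difference of the 4 log2 fold changes against 0 h. Compared were 10348 tested genes (10349 for Gdf15), all with a mean of at least 5 CPM. Gene models with a Gm or Rik symbol were left out. Because the 4 changes share the 0 h libraries, this likeness is a description. For Perp the nearest was Cdk1, the kinase that drives mitosis (difference 0.0468), followed by Col3a1 (0.109) and Pole (0.124). Cdk1 rose by 1.47 and Col3a1 by 1.22 at 24 h. For Ccng1 the nearest were Rad9a (0.0114), a clamp protein of the DNA damage checkpoint, Trmt1l (0.034) and Cox15 (0.038). For Phlda3 they were Pcyt2 (0.0365), Gda (0.055) and Map7d1 (0.0579). Mdm2 was nearest to Hoxc13 (0.065), Mn1 (0.073) and Helz2 (0.083), and Btg2 to Rab30 (0.0886), Gnpda1 (0.115) and Nhsl1 (0.119). Gdf15 was nearest to Dck (0.073), Cmc2 (0.0826) and Banp (0.118). Zmat3 was nearest to a transcript named RP23-331A21.2 (0.0238), Ints9 (0.0305) and Col16a1 (0.0306). Trp53 was nearest to Prkag2 (0.0143), Rbck1 (0.0183) and Tm9sf1 (0.0207). Trp53inp1 and Gadd45a lay farthest from their nearest genes. Those genes were Sox4 (0.31), Slitrk6 (0.316) and Bbc3 (0.373) for Trp53inp1, and Clec2d (0.165), Dleu2 (0.198) and Akr1b10 (0.229) for Gadd45a. The difference is not scaled by the size of the changes, so a member with large changes tends to lie farther from other genes. Distances of different members are therefore no measure of how particular a course is.

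The authors' deposited table of edgeR results lists all 10 members. Of 70 comparisons of a member with 0 h or between successive times, 34 were called in both analyses and 34 in neither. The authors' deposited table called the other 2, which were Zmat3 at 24 h against 0 h (FDR 0.0375) and Phlda3 from 1 to 2 h (FDR 0.0362). The largest difference in a log2 fold change from the authors' deposited table was 0.0148.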

How the data were processed

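Messenger RNA levels of the 20 libraries came from the count table that the authors deposited, which holds whole-number raw read counts per gene. Groups and replicate numbers were read from the labels. Tools named in the submitters' processing notes are FastQC, STAR and edgeR, and the build is mm10. Which program did the counting, with which annotation and with what use of strand, is not given in the sources used here. A second table of the authors holds deposited edgeR log2 fold changes and adjusted p-values (FDR), per the file headers, and is used only where it is named.

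Counts were filtered with filterByExpr (14420 genes, 99.9% of counts), scaled by TMM and fitted in 1 robust quasi-likelihood model of all 20 libraries with edgeR 4.0.16 in R 4.3.3, without covariates. P-values are two-sided and Benjamini-Hochberg adjusted over all genes tested. The SE is the log2 fold change divided by the square root of its F statistic, and the 95% interval spans 1.96 SE either way. CPM uses TMM library sizes, and RPKM divides it by the union of exons in GENCODE M21. The fit was tested on simulated data. The members, lists and tests were chosen with earlier results of these data known. The members are always named. Of the other pathway genes, the naming rule took at each time up to 4 called higher and 4 called lower with the largest log2 fold change, provided the group with the higher level had a mean CPM of 5 or more. For each member it also took the 3 genes with the most similar course. These were sought among tested genes with a mean CPM of 5 or more and no gene model symbol (Gm or Rik). The p53 response element was searched as a pair of adjoining p53 half-sites with at most 1 mismatch in all, which could not fall on the C at position 4 or the G at position 7 of either half-site. Seven-base and longer motifs were exact matches, and the C/EBP composite allowed any base at its N positions.

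In the labels, 0 h replicates 1 and 2 share 1 description. Their counts differed by more than sampling noise (chi-square of 9.28 per degree of freedom), so each was counted. Alternatives were RLE scaling, 2 other filters, DESeq2 1.42.0, a replicate block, fits restricted to the 8 libraries of a pair of times, and fits that left out libraries. Depth ranged from 13734425 to 22687173 counts.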

Additional observations from a re-analysis of the deposited data

Results flagged for a closer look

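Each of the 10 genes was checked at each of the 5 times for 1 library far from the other 3, by Dixon's gap at the 95% level, which chance passes in about 1 in 20 groups. Of 50 groups, 2 passed. Trp53inp1 at 24 h stood at 182 CPM in replicate 1, while the other 3 libraries lay between 161.6 and 162.5 CPM (gap of 0.96 of the range). Gadd45a at 6 h stood at 44.31 CPM in replicate 3, while the others lay between 37.58 and 38.45 CPM (gap of 0.872 of the range). Leaving out either library changed no call of that gene at that time against 0 h.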

How the results depend on the processing

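Over 27 settings, 2829 of 2960 recomputed member values kept their call, 70 lost it, 61 gained it and 0 reversed. Among the values that kept their call, 23 changes called in neither setting switched sign. With the replicate block no member call changed, and the counts of members called stayed at 4, 4, 4 and 6 at 1, 2, 6 and 24 h. Same-numbered libraries did not deviate together (1 of 40 correlations over 0.1, and 3 of 20 libraries correlated best with their own number), so the numbers were not treated as pairs. The count of regulators called at 1 h was 2 in place of 1 with no filter on low counts and with only the 8 libraries compared, and at 24 h it was 11 in place of 7 with only those 8. Leaving out 1 library at a time gave 4 to 4 members called at 1 h, 4 to 5 at 2 h, 2 to 4 at 6 h, 6 to 7 at 24 h and 9 to 10 for any change. It gave 4 to 6, 5 to 9 and 4 to 5 members for the 3 steps. Regulators ranged from 1 to 2 at 1 h and from 6 to 11 at 24 h, the highest value at 24 h without 2 h replicate 4. None of these ranges has the share of all genes called in the same fits beside it. A called change moved by over 1.5 times in 4 cases, which are given with the pairs of times and with Gadd45a. Depth limits Gdf15 most, at 30 to 87 counts per library.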

Other observations

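Genes around the p53 network that the text has not described were singled out after their values were seen, and are given as values. Trp63, a relative of p53, was scarce, at 3.84 ± 0.638 CPM at 0 h and 0.912 ± 0.258 CPM at 2 h (SD, n = 4), with changes of -2.07 ± 0.25 at 2 h, -2.16 ± 0.25 at 6 h and -1.16 ± 0.23 at 24 h (adjusted p = 1.75e-07, 7.49e-08 and 0.000395 by edgeR's quasi-likelihood test). Trp53cor1, a noncoding RNA that lies near Cdkn1a and is known as a p53 target, fell from 2.88 ± 0.572 CPM at 0 h to 0.663 ± 0.215 CPM at 2 h (9 to 16 counts per library at 2 h). Its change was -2.13 ± 0.29 at 2 h (adjusted p = 1.31e-06), -1.19 ± 0.26 at 6 h (adjusted p = 0.000643) and -0.02 ± 0.25 at 24 h. Mdm4, the partner of Mdm2 that masks p53, was lower at 2 h (-0.56 ± 0.10, adjusted p = 0.000102) and 6 h (-0.41 ± 0.10, adjusted p = 0.00197).

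Tnfrsf10b, a death receptor, was higher at all 4 times by a similar amount, from 0.45 ± 0.07 at 1 h to 0.48 ± 0.07 at 24 h, with 56.4 ± 6.20 CPM at 0 h and 78.6 ± 5.42 CPM at 24 h. Sesn2, an inhibitor of mTORC1, first stood lower, at -0.22 ± 0.07 at 1 h (adjusted p = 0.0547) and -0.16 ± 0.07 at 2 h (adjusted p = 0.0792). Its 1 h change was called with RLE scaling (adjusted p = 0.0347), DESeq2 (0.0222) and only the 8 libraries compared (0.00713), among other settings. Against 0 h, Sesn2 was then higher by 0.25 ± 0.07 at 6 h (adjusted p = 0.00663) and by 0.55 ± 0.07 at 24 h (adjusted p = 1.44e-06). Of the relatives of Gadd45a, Gadd45b was called lower at 2, 6 and 24 h (-0.72 ± 0.10, -0.49 ± 0.10 and -0.58 ± 0.10). Gadd45g was called lower at 2 h (-0.46 ± 0.12), but was -0.21 (adjusted p = 0.0925) there without 2 h replicates 1 and 2. Its 6 h change (-0.38 ± 0.12, adjusted p = 0.0196) was not called without 6 h replicate 2 (0.0662) or without 6 h replicate 4 (0.0525).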
